A study of Homo sapiens with 6 samples.

Results

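The genes described here are 48 targets of NF-kappaB, cytokines and chemokines, listed by symbol, as measured in AGS, an established human line derived from a carcinoma of the stomach. A gene was measured where a transcript cluster of the array (the set of probes that reads 1 gene) carried its symbol and no other. This held for 47 of the 48, out of 18417 genes in all, and CSF2 was not analysed here. Cells were seeded, grown for 48 h and then kept for 24 h with 20 µM celecoxib, an inhibitor of the prostaglandin-producing enzyme cyclooxygenase-2 that had been dissolved in DMSO, or as labelled controls with no treatment. Each group had 3 Affymetrix HuGene-1_0-st arrays, made from 250 ng of total RNA each. The labels call the arrays biological replicates but also mention pooling after the RNA quality check, so the p-values reflect array-to-array spread, part of which may be technical. The labels do not say whether DMSO was added to the control wells, so celecoxib and its solvent cannot be told apart.

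NF-kappaB is a family of dimeric transcription factors, held inactive in the cytoplasm by inhibitor proteins of the IkappaB family. Receptors for tumour necrosis factor, interleukin-1 and bacterial products activate a kinase complex that marks the inhibitors for destruction, and the freed dimers enter the nucleus and switch on genes of inflammation. Many of these targets are cytokines and chemokines, the secreted signals that activate and attract white blood cells. Others are the inhibitors themselves, which close a feedback loop that ends the response. In the stomach this pathway is best known from the response of the epithelium to Helicobacter pylori.

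Values are RMA log2 expression, and each difference is celecoxib minus control on this log2 scale. Values of different genes rest on different probes, so levels are compared between arrays for 1 gene and never between genes. Array medians were 6.75, 6.78 and 6.79 with celecoxib and 6.81, 6.82 and 6.80 in controls, and Pearson's r between arrays, across transcript clusters, ranged from 0.985 to 0.996. Of the epithelial markers EPCAM, KRT8, KRT18, KRT19, KRT7, CLDN4, ELF3 and CDH1, 8 of 8 lay above the median of all clusters, with list means of 10.11, 10.09 and 10.11 on the celecoxib arrays and 10.17, 10.16 and 10.12 on the control arrays. That mean was thus also slightly lower with celecoxib on all arrays, with KRT18 at -0.21 ± 0.07 and KRT8 at -0.16 ± 0.08, and its part in the results below was not tested. Of 8 leukocyte markers 2 lay above that median, CD68 and CSF1R, and PTPRC, the gene of the leukocyte surface protein CD45, was among the dimmest 20% of clusters. The mean of these 8 leukocyte markers lay between 5.92 and 6.08 on the celecoxib arrays and between 5.89 and 6.14 on the control arrays. Of 5 endothelial markers 0 lay above the median, and of 6 fibroblast markers 1 did, COL1A1. Endothelial means lay between 5.43 and 5.53 with celecoxib and between 5.45 and 5.49 in controls, and fibroblast means between 5.51 and 5.60 with celecoxib and between 5.52 and 5.55 in controls. On the first principal component of all clusters, which held 40.4% of the variance, the celecoxib arrays stood at 39.8, -18.7 and 4.94 and the control arrays at -14.9, -28.0 and 16.8, so it did not separate the groups and celecoxib replicate 1 lay farthest out.

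Of the 47 genes, 31 had a negative difference, at a median of -0.06, and the largest was that of the cytokine IL32, 1.63-fold lower with celecoxib. Members with smaller negative differences whose groups did not overlap were TNFAIP2, IRF1, TNFAIP3, IL18, BCL3, CD83, CCL5 and LIF. The neutrophil chemokines CXCL1, CXCL2, CXCL3, CXCL5 and CXCL8 and the inhibitor gene NFKBIA differed by -0.11 to 0.04, with 95% intervals that included 0. In RNA from whole wells, fewer expressing cells and less RNA per cell cannot be told apart.

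No member passed an adjusted p of 0.05 (limma, Benjamini-Hochberg over 18417 genes), where 26 genes, or 0.141% of all tested, did, 12 of them lower (0.0652%). In the same fit 8 of 47 members (17.0%) had an unadjusted p under 0.05, all of them lower with celecoxib, while 11.3% of all genes had one, 4.44% lower and 6.87% higher. The 3 celecoxib values lay below the 3 control values in 9 members, against 7.95% of all genes, and above them in 1 member, the membrane-bound chemokine CX3CL1, against 11.1% of all genes, or 10 members beside 19.0% of all genes in either direction. Negative differences made up 66.0% of the members, beside 52.1% of all genes. Their median of -0.06, with quartiles of -0.13 and 0.03, stood beside -0.01 over all genes. The members were chosen with earlier results of these data known, so the choice itself may have shaped these shares. After shifting each array to a common median, 27 of 47 members (57.4%) were lower beside 40.5% of all genes. The members' median was then -0.03 and that of all genes 0.03. At an unadjusted p under 0.05, 5 members were lower and 1, IL33, was higher, beside 12.5% of all genes. The members' count was then near the share of all genes.

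**Figure D1:**
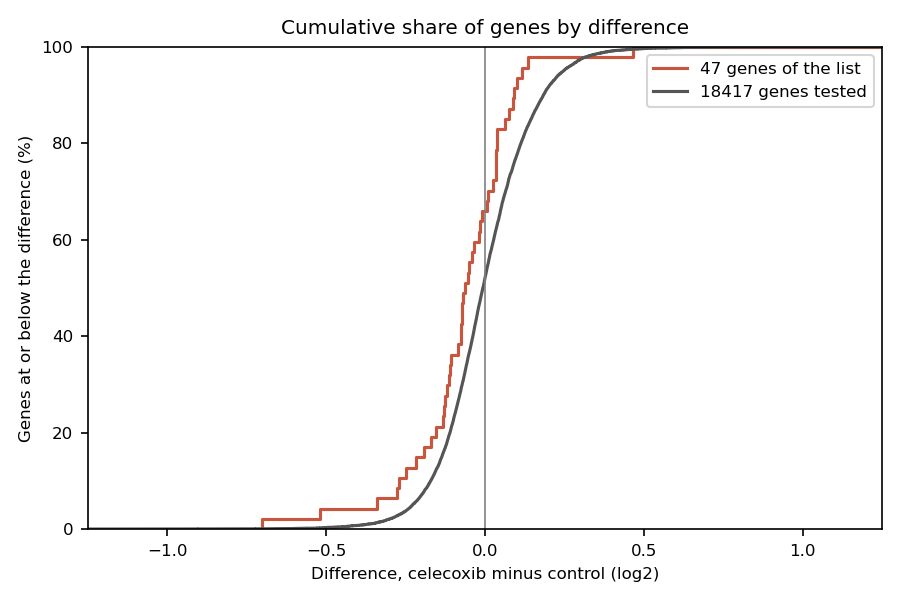
Cumulative share of genes (vertical axis, percent) at or below each log2 difference, celecoxib minus control (horizontal axis), for the 47 measured members and for all 18417 genes. The members' line lies to the left of the other over most of its length, with medians of -0.06 and -0.01, and IL33 at 0.47 is the member farthest to the right. The members were chosen with earlier results of these data known.

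The sizes were bounded as well. For all 47 members the 95% interval of the difference lay within 1 log2 unit (2-fold) of no change on either side, as it did for 99.6% of all genes. For 42 members it lay within 0.5, beside 89.8% of all genes, and the other 5 were IL32, IL33, BCL3, RELA and TNFAIP2. It lay within 0.25 for 16 members, beside 29.3% of all genes. Of the 47 members, 30 lay above the median of all clusters and 3, IL1A, IL33 and CCL20, among the dimmest 20%. At low signal a narrow interval bounds the measured value and may not bound a change in RNA.

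**Figure D2:**
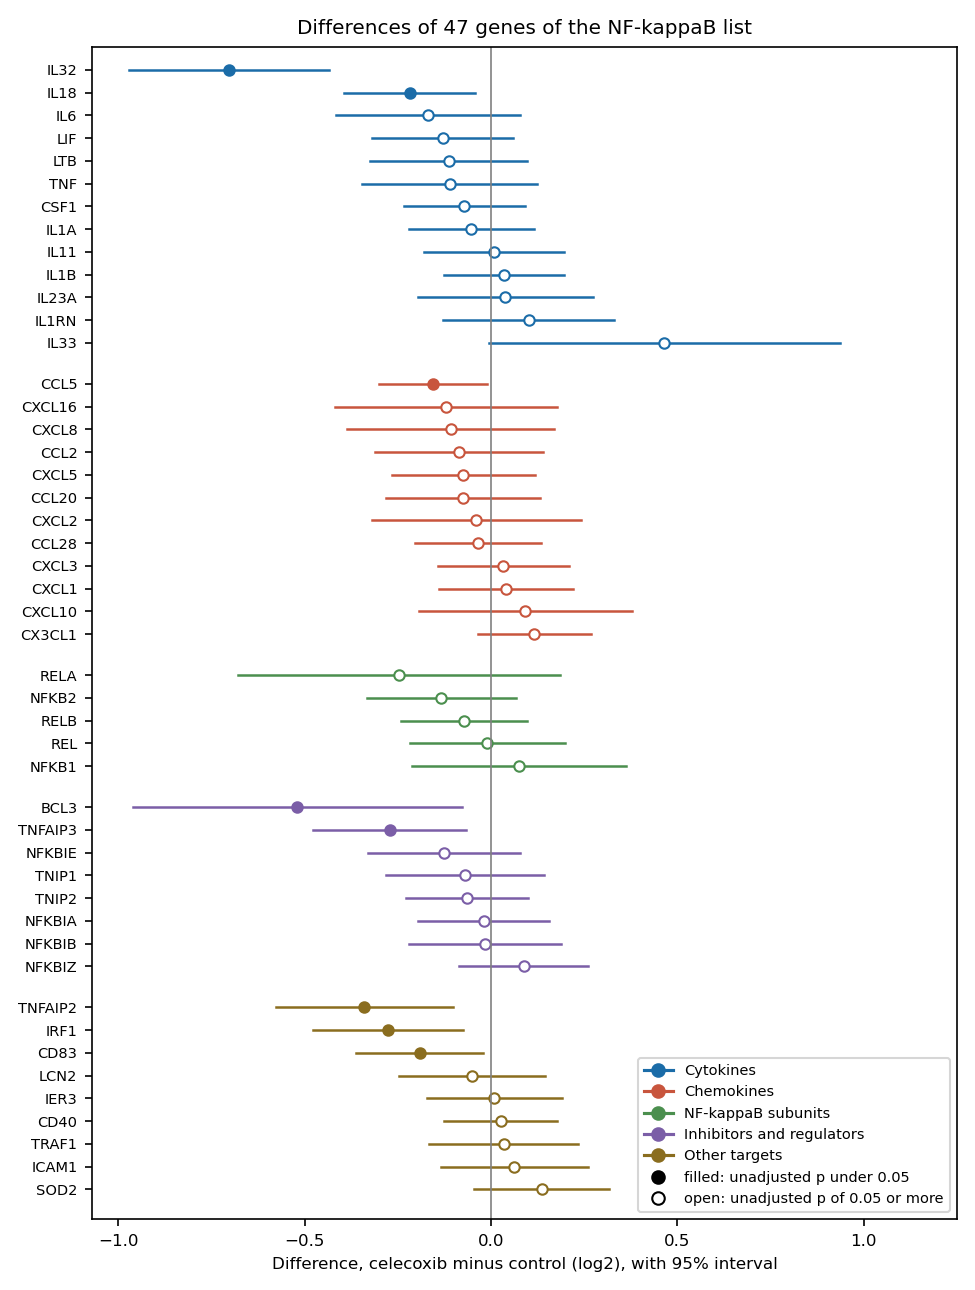
Log2 difference of each of the 47 members (horizontal axis, celecoxib minus control) with its 95% interval from the limma fit (n = 3 per group), grouped by role. Filled points mark the 8 members at an unadjusted p under 0.05, all of them negative, from IL32 at -0.70 to CCL5 at -0.16.

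The mean of the 47 members was 7.33, 7.30 and 7.32 on the celecoxib arrays and 7.38, 7.40 and 7.38 on the control arrays, so the groups did not overlap, while the mean of all 18417 genes lay between 7.30 and 7.32 with celecoxib and between 7.31 and 7.33 in controls. The array medians, too, were all lower with celecoxib. With each array's median taken off, the members' means were 0.58, 0.52 and 0.53 with celecoxib and 0.57, 0.58 and 0.57 in controls, so celecoxib replicate 1 then lay among the controls and the groups overlapped. Celecoxib replicate 2 held the lowest of the 6 values for 16 members and control replicate 2 the highest for 13. Celecoxib replicate 1 was spread to both ends, holding the lowest value for 10 members and the highest for 11.

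**Figure D3:**
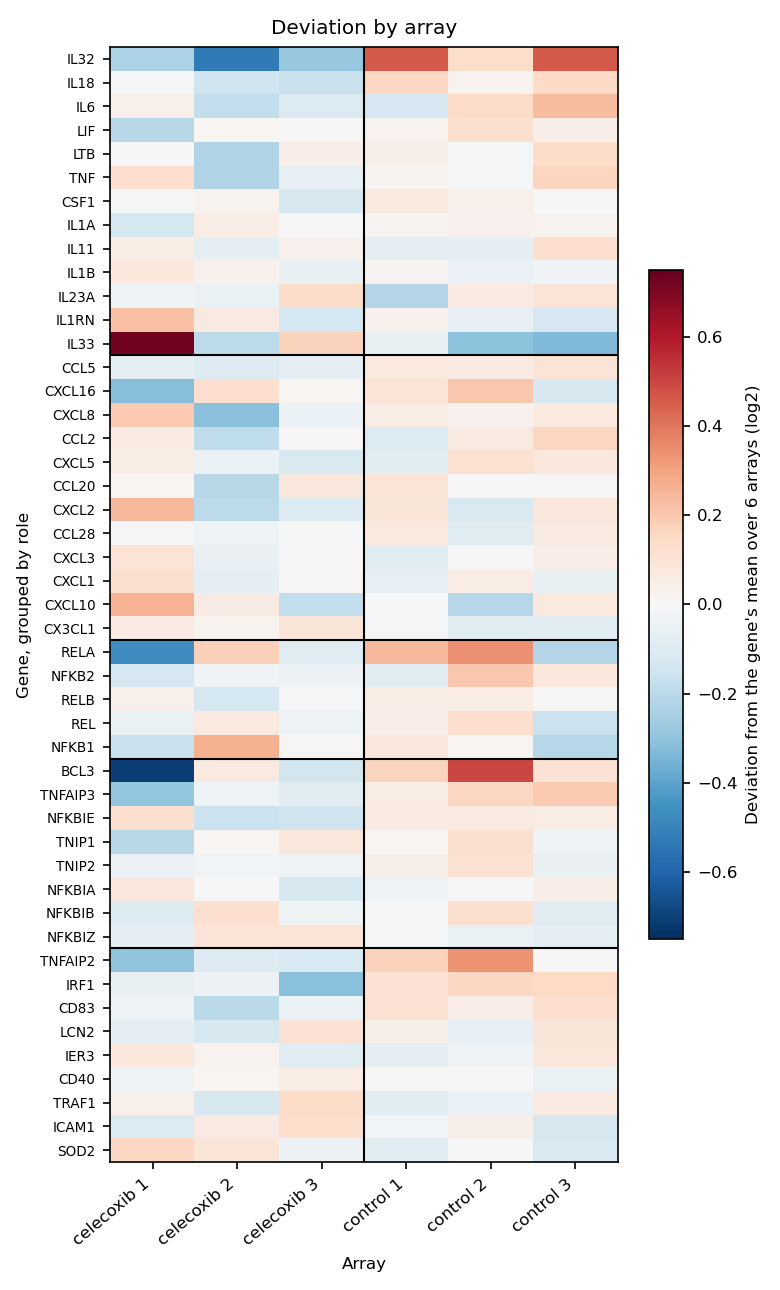
Deviation of each member (rows, grouped by role in the order cytokines, chemokines, subunits, inhibitors and regulators, other targets) from its own mean over the 6 arrays (log2, colour), with the celecoxib arrays left of the control arrays. IL32 is below its mean on all 3 celecoxib arrays and above it on all 3 control arrays, whereas IL33 and BCL3 have their most extreme value on celecoxib replicate 1.

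Among the cytokines, 13 of 14 genes were measured, 8 of them with negative differences and a median of -0.07. IL32 and IL18 were lower at an unadjusted p under 0.05 and no cytokine was higher at that level. Of all genes, 4.44% were lower and 6.87% higher at that level. IL32 encodes interleukin-32, a cytokine without a close relative that induces other inflammatory cytokines in monocytes. It measured 8.34, 8.05 and 8.29 on the celecoxib arrays and 9.04, 8.71 and 9.04 on the control arrays. The highest celecoxib value lay well below the lowest control value, and the means were 8.23 ± 0.16 with celecoxib and 8.93 ± 0.19 in controls (SD, n = 3 each). The difference was -0.70 ± 0.12 (SE), with a 95% interval from -0.97 to -0.43 and a limma adjusted p of 0.0879. By size it ranked 22 among the 18417 genes. The adjusted p ranged from 0.0142 to 0.42 over 17 alternative settings and was under 0.05 in 4 of them, while the difference stayed between -0.81 and -0.61. The lowest came with array weights, where the controls rest largely on control replicate 1.

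IL18, a cytokine of the interleukin-1 family that is stored as a precursor in epithelial cells, measured 10.14, 10.00 and 9.98 with celecoxib and 10.31, 10.18 and 10.29 in controls. The groups lay close together without overlap, and the difference was -0.22 ± 0.08 (SE, limma adjusted p = 0.363). LIF, a relative of interleukin-6, measured 7.23, 7.46 and 7.44 with celecoxib and 7.47, 7.56 and 7.49 in controls. Its groups nearly touched, at 7.46 and 7.47, at a difference of -0.13 ± 0.08 that was -0.06 without celecoxib replicate 1. IL33, an alarmin held in the nucleus, measured 5.65, 4.73 and 5.10 with celecoxib and 4.87, 4.62 and 4.59 in controls. It was the largest positive difference of the list, at 0.47 ± 0.21 (SE, limma adjusted p = 0.442), but the groups overlapped, the gene was among the dimmest 20% of clusters, and without celecoxib replicate 1 the difference was 0.22. It was 0.68 without celecoxib replicate 2 and 0.55 without control replicate 1, both at an unadjusted p under 0.05. In the fit reported this p was 0.0522 (limma). It was also under 0.05 with arrays shifted to a common median, cyclic loess, an intensity trend or the replicate number as a block. In the other alternatives that held IL33 it was not.

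The 95% intervals of the other cytokines included 0. IL6, the inducer of the acute phase response, differed by -0.17 ± 0.11, LTB (lymphotoxin beta) by -0.11 ± 0.09, TNF (tumour necrosis factor) by -0.11 ± 0.10 and CSF1, the growth factor of macrophages, by -0.07 ± 0.07. Without control replicate 1 IL6 differed by -0.27, at an unadjusted p under 0.05. Of the interleukin-1 genes, IL1A differed by -0.05 ± 0.07, IL1B by 0.03 ± 0.07 and IL1RN, the natural antagonist of their receptor, by 0.10 ± 0.10. IL11 and IL23A, a subunit of interleukin-23, stood at 0.01 ± 0.08 and 0.04 ± 0.10. TNF and LTB lie in the histocompatibility region and each had several clusters on the array. The 3 clusters of TNF held identical values, as did 3 of the 4 of LTB, and the fourth cluster of LTB also differed by -0.11.

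All 12 chemokines were measured. Of these 8 had negative differences, and the median was -0.06. Only CCL5 was lower at an unadjusted p under 0.05, beside 4.44% of all genes lower and 11.3% in either direction. CCL5, also known as RANTES, attracts T cells and monocytes. It measured 7.89, 7.86 and 7.88 on the celecoxib arrays and 8.02, 8.01 and 8.05 on the control arrays. The values within each group were very close, so a small difference of -0.16 ± 0.06 (SE, 1.11-fold lower, limma adjusted p = 0.421) separated the groups. CX3CL1, a chemokine anchored in the membrane by a mucin-like stalk, measured 7.13, 7.09 and 7.16 with celecoxib and 7.06, 6.98 and 6.98 in controls. It was the 1 member whose celecoxib values all lay above the controls, at 0.12 ± 0.07 (limma adjusted p = 0.522).

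CXCL16, also a membrane-anchored chemokine given in full by the rule for named genes, measured 9.63, 10.07 and 9.96 with celecoxib and 10.04, 10.15 and 9.83 in controls. The groups overlapped, and the difference of -0.12 ± 0.13 was 0.01 without celecoxib replicate 1. CXCL8 (interleukin-8), the main attractant of neutrophils and the chemokine best known from infected gastric epithelium, measured 6.53, 6.02 and 6.29 with celecoxib and 6.39, 6.37 and 6.41 in controls. Its celecoxib values scattered to both sides of the narrow control range, and it differed by -0.11 ± 0.12 (95% interval from -0.38 to 0.17). The difference was -0.23 without celecoxib replicate 1, at an unadjusted p under 0.05, and 0.02 without celecoxib replicate 2. The neutrophil attractants CXCL1, CXCL2, CXCL3 and CXCL5 differed by 0.04 ± 0.08, -0.04 ± 0.12, 0.03 ± 0.08 and -0.07 ± 0.08. CXCL1, CXCL2 and CXCL3 are close relatives in sequence, so their probes may share signal and their values are uncertain. CXCL10, an interferon-induced attractant of T cells, differed by 0.09 ± 0.12. The monocyte attractant CCL2 stood at -0.09 ± 0.10, CCL20, which attracts cells bearing CCR6, at -0.07 ± 0.09, and the mucosal chemokine CCL28 at -0.03 ± 0.07.

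The promoters of these genes were set beside the values, because a kappaB site is what many of them share. The list was drawn up from targets of NF-kappaB, so a high share of kappaB letters follows in part from that choice. RefSeq promoter windows (GRCh38.p14, 250 bases before to 50 after the start) were found for 36 of the 47 members, and the others are CCL2, CCL5, CD40, CSF1, CX3CL1, CXCL16, IER3, IL18, LIF, NFKBIE and RELB. The letters GGAATTTCC, a form of the kappaB site, were searched on both strands. They stood in 11 of the 36 windows (30.6%), beside 0.483% of all 27305 windows of the same length. They are shown with 10 bases on each side, read on the strand that spells the motif, which is in capitals.
CXCL1: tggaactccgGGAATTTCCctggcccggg
CXCL2: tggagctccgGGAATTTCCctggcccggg
CXCL3: tggagctccgGGAATTTCCctggcccggc
CXCL5: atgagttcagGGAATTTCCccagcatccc
CXCL8: tgcaaatcgtGGAATTTCCtctgacataa
CXCL10: tccaagttacGGAATTTCCctctgctcct
ICAM1: cttcagctccGGAATTTCCaagctaaagc
NFKB1: gacgtcagtgGGAATTTCCagccaggaag
NFKBIA: tcaggctcggGGAATTTCCaagccagtca
NFKBIZ: ttttggtctgGGAATTTCCagtgtgcaga
REL: tggcgggaggGGAATTTCCcgcggctgac
The stretches of CXCL1 and CXCL2 are the same at 28 of 29 bases and those of CXCL1 and CXCL3 at 27, whereas CXCL1 and CXCL8 share 17. A G stands before the motif in 8 of the 11, and these 8 also match a second form, GGG-NN-TTTCC (GGG, any 2 bases, TTTCC).

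These 11 sites lie upstream of the start. On chromosome 4 they are at chr4:73869305-73869333 for CXCL1 (plus strand shown), chr4:74099254-74099282 for CXCL2, chr4:74038749-74038777 for CXCL3 and chr4:73998749-73998777 for CXCL5 (minus strand), and chr4:73740468-73740496 for CXCL8, chr4:76023655-76023683 for CXCL10 and chr4:102501301-102501329 for NFKB1 (plus strand). The others are at chr19:10270924-10270952 for ICAM1 and chr2:60881518-60881546 for REL (minus strand), and chr14:35404812-35404840 for NFKBIA and chr3:101827758-101827786 for NFKBIZ (plus strand). The 11 genes differed between -0.11 (CXCL8) and 0.09 (CXCL10) with celecoxib, 5 of them negative, at a median of 0.03, and 0 of them had an unadjusted p under 0.05. The other 25 members with a window differed between -0.70 and 0.47, 18 of them negative, at a median of -0.07, and 6 had an unadjusted p under 0.05. Both counts stand beside 11.3% of all genes, and at that share a count of 0 in 11 genes is near the background. Of the 25 members, IL32, TNFAIP3, IL6, LTB, CCL20 and TNIP1 held the form GGG-NN-TTTCC. Counted by window, GGAATTTCC stood in 0 of the 6 windows of members at an unadjusted p under 0.05 and in 11 of the other 30. That is the same count of 0 read from the other side, and no further result. For GGG-NN-TTTCC, which overlaps GGAATTTCC in part and is not a looser form of it, these counts were 2 of 6 and 12 of 30. No split by sequence was tested, and a match is a description of letters, not of binding.

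IL32 and TNFAIP3 are the 2 members at an unadjusted p under 0.05 whose windows held the form GGG-NN-TTTCC. It stood in 14 of the 36 member windows (38.9%) and in 1.92% of all windows. The 250 bases before the start are shown for both genes on the gene's strand, with matches in capitals, that of IL32 on this strand and those of TNFAIP3 on the opposite one. They lie at chr16:3065153-3065402 and chr6:137867009-137867258, both on the plus strand.
IL32: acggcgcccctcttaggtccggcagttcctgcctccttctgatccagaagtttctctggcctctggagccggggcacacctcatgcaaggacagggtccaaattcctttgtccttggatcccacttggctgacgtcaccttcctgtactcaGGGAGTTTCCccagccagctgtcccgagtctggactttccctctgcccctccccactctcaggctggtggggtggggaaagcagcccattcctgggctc
TNFAIP3: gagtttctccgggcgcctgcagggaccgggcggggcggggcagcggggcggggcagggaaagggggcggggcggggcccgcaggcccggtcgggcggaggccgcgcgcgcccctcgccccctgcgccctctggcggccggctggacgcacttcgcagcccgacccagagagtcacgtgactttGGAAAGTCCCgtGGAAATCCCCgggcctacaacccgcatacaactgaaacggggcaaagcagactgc
The match of IL32 lies 99 to 90 bases before the start and those of TNFAIP3 67 to 58 and 55 to 46 bases before it. The loosest form, GGG-NNNNN-CC, of which GGG-NN-TTTCC is a case, stood in 31 of the 36 windows (86.1%) and in 58.0% of all windows. Of the other members at an unadjusted p under 0.05, TNFAIP2, IRF1 and BCL3 held it and CD83 held none of the 3 forms in this window. The loosest form thus stood in 5 of the 6 windows of members at that level and in 26 of the other 30. Other forms of the kappaB site were not searched, so these counts do not show which windows lack such a site.

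The 5 NF-kappaB subunits had 4 negative differences and a median of -0.07, and 0 of them had an unadjusted p under 0.05 (limma), where 11.3% of all genes did in either direction. RELA, the p65 subunit that carries most of the activating function, measured 7.80, 8.44 and 8.17 with celecoxib and 8.50, 8.61 and 8.04 in controls. Its arrays overlapped widely, and the difference of -0.25 ± 0.19 was -0.08 without celecoxib replicate 1 and, at an unadjusted p under 0.05, -0.42 without control replicate 3. These arrays held its lowest value in each group and also stood highest of their group on the first principal component, whose part in the result was not tested. REL measured 8.61, 8.73 and 8.63 with celecoxib and 8.72, 8.79 and 8.50 in controls, a difference of -0.01 ± 0.09. NFKB1, the precursor of p50, differed by 0.07 ± 0.12, NFKB2, the precursor of p52, by -0.13 ± 0.09 and RELB, its usual partner, by -0.07 ± 0.07.

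Of the 8 inhibitors and regulators of the pathway, 7 had negative differences, with a median of -0.07. TNFAIP3 encodes A20, an enzyme that edits ubiquitin chains and ends the signal of the tumour necrosis factor receptor. It measured 6.81, 7.07 and 7.02 on the celecoxib arrays and 7.16, 7.26 and 7.30 on the control arrays. The groups did not overlap, and the difference was -0.27 ± 0.09 (SE, 1.21-fold lower, limma adjusted p = 0.344). It was -0.18 when the arrays were weighted, a fit in which the controls rest largely on control replicate 1. BCL3, a nuclear IkappaB protein that works with p50 and p52 dimers, measured 8.51, 9.28 and 9.08 with celecoxib and 9.39, 9.72 and 9.33 in controls. The groups were separated by little at the nearest values, 9.28 and 9.33, and the difference was -0.52 ± 0.19 (SE, 1.43-fold lower, limma adjusted p = 0.38). Without celecoxib replicate 1 it was -0.30, and that array, the lowest for BCL3, was also the highest on the first principal component, whose part in the result was not tested.

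NFKBIA encodes IkappaB-alpha, the inhibitor that NF-kappaB resynthesises most rapidly, and its transcript is a common readout of the pathway. It measured 9.95, 9.86 and 9.74 with celecoxib and 9.83, 9.87 and 9.91 in controls. The control values lay inside the celecoxib range, and the difference was -0.02 ± 0.08 (95% interval from -0.20 to 0.16). The further inhibitors NFKBIB and NFKBIE differed by -0.02 ± 0.09 and -0.13 ± 0.09, and NFKBIE by -0.22 without celecoxib replicate 1, at an unadjusted p under 0.05. NFKBIZ, a nuclear IkappaB protein needed for the induction of IL6 and LCN2 in mice, stood at 0.09 ± 0.08 and was the 1 gene of this group with a positive difference. TNIP1 and TNIP2, partners of A20, differed by -0.07 ± 0.09 and -0.06 ± 0.07.

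Among 9 further targets, 3 were lower at an unadjusted p under 0.05, beside 4.44% of all genes lower and 11.3% in either direction. The median of 0.01 lay near that of all genes. TNFAIP2, a protein of tunnelling nanotubes first found as induced by tumour necrosis factor, measured 7.68, 7.88 and 7.87 with celecoxib and 8.15, 8.32 and 7.98 in controls. The nearest values of the groups were 7.88 and 7.98, and the difference was -0.34 ± 0.10 (SE, 1.27-fold lower, limma adjusted p = 0.322). IRF1, a transcription factor of interferon responses, measured 7.87, 7.89 and 7.62 with celecoxib and 8.04, 8.09 and 8.08 in controls. The control values lay close together above all celecoxib values, at a difference of -0.28 ± 0.09 (SE, 1.21-fold lower, limma adjusted p = 0.336). CD83, a surface protein best known from mature dendritic cells, measured 6.33, 6.17 and 6.32 with celecoxib and 6.48, 6.42 and 6.49 in controls. It differed by -0.19 ± 0.07 (SE, limma adjusted p = 0.402).

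**Figure D4:**
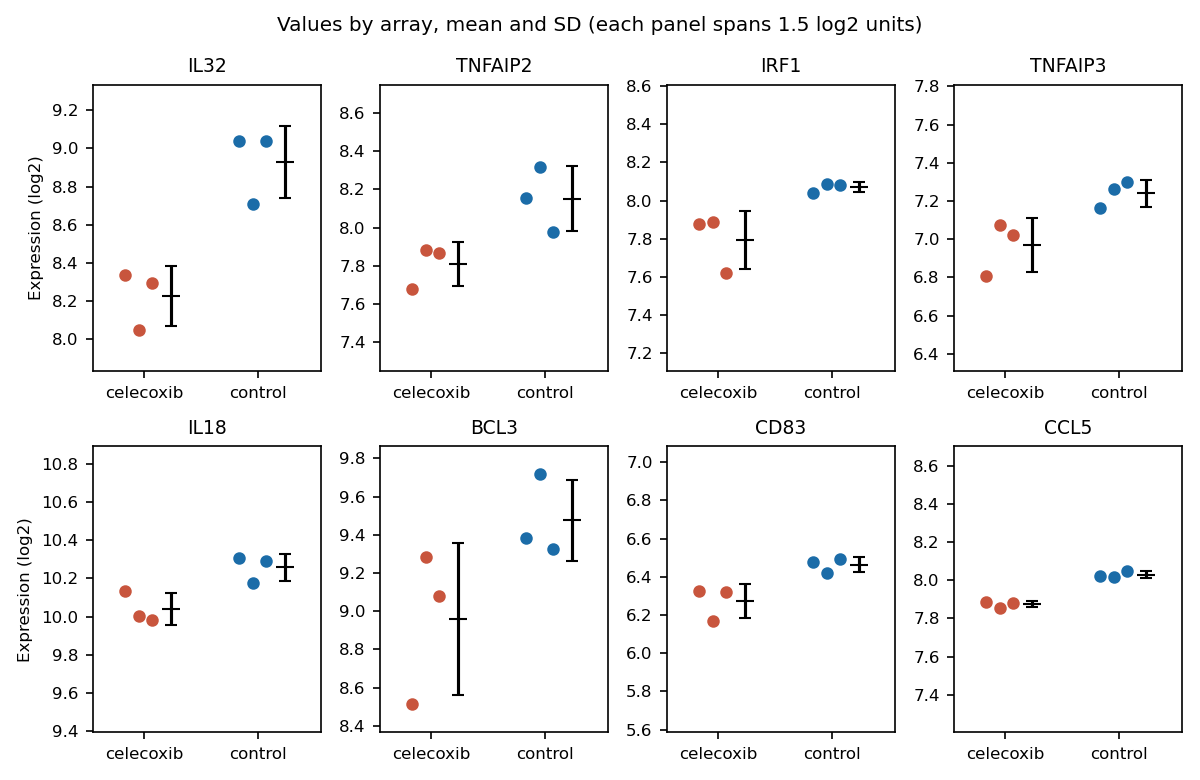
Log2 expression (vertical axes, each spanning the same range) of the 8 members at an unadjusted p under 0.05, with the 3 celecoxib arrays left of the 3 control arrays (replicates 1 to 3 from left to right) and the mean and SD of each group as bars. In all 8 panels the celecoxib values lie below the control values, by the widest margin in IL32.

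The remaining targets lay near 0. IER3, an early response gene, measured 10.27, 10.21 and 10.10 with celecoxib and 10.11, 10.16 and 10.27 in controls, ranges that nearly coincide. Its difference was 0.01 ± 0.08, and its other 2 clusters, identical to each other, showed 0.004. The adhesion molecule ICAM1 differed by 0.06 ± 0.09, the mitochondrial superoxide dismutase SOD2 by 0.14 ± 0.08, the siderophore-binding protein LCN2 by -0.05 ± 0.08, the receptor CD40 by 0.03 ± 0.07 and the adaptor TRAF1 by 0.03 ± 0.09.

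Receptors and signalling genes that are not among the members were read from 2 further lists. Of 24 receptors, which take up the members' products or sense microbial products, 22 were measured, 12 with negative and 10 with positive differences and a median of -0.01. At an unadjusted p under 0.05 there were 2 lower and 1 higher, and 0 at an adjusted p of 0.05 (limma). This share of 13.6% at the unadjusted level was near the 11.3% of all genes. CXCR6, the receptor of CXCL16, measured 5.36, 5.29 and 5.32 with celecoxib and 5.65, 5.48 and 5.69 in controls, a difference of -0.28 ± 0.08 (limma adjusted p = 0.288). Its signal lay below the median of all clusters. LIFR measured 10.00, 10.01 and 10.00 with celecoxib and 10.25, 10.25 and 10.18 in controls. IL6ST (gp130), with which LIFR forms the receptor of LIF, measured 9.48, 9.35 and 9.38 with celecoxib and 9.21, 9.13 and 9.19 in controls. The 2 chains thus stood on opposite sides, at -0.22 ± 0.06 for LIFR and 0.23 ± 0.07 for IL6ST, and in both the groups did not overlap (limma adjusted p = 0.304 and 0.329).

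Of 26 adaptors, ubiquitin enzymes and kinases of the pathway, 21 were measured, 10 with negative and 11 with positive differences and a median of 0.001. TRADD, the adaptor of the tumour necrosis factor receptor, measured 7.41, 7.50 and 7.55 with celecoxib and 7.85, 7.79 and 7.66 in controls, a difference of -0.28 ± 0.08 (limma adjusted p = 0.292). CHUK, the IKK-alpha kinase, stood at 0.17 ± 0.07, and these were the 2 genes of this list at an unadjusted p under 0.05. Their share of 9.52% was near the 11.3% of all genes. The partner of CHUK, IKBKB (IKK-beta), differed by -0.11 ± 0.10 and the regulatory subunit IKBKG by -0.04 ± 0.07. No gene of the list passed an adjusted p of 0.05. Genes of the 2 lists that were not analysed here include TLR5, IRAK4, RIPK1, TRAF2, BIRC3 and TAB1.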

How the data were processed

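RNA of 6 samples was measured on HuGene-1_0-st arrays. The deposited log2 values, 1 per transcript cluster and array, were made by the authors with RMA in Affymetrix Expression Console 1.1 (per the submitters' processing notes). Probe-level settings, slides and scan dates are not given in the labels, so no batch was tested, and scanner files were left aside. Precision is limited by the number of arrays.

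Of 33297 clusters, the platform annotation gave 1 symbol to 19460, several to 1754 and none to 12083. Of those with 1 symbol, the cluster with the highest mean over 6 arrays stood for a gene, leaving 18417 genes. Groups came from the labels. The 3 celecoxib and 3 control arrays were compared in R 4.3.3 with limma 3.58.1 (lmFit, then eBayes), with p-values two-sided and Benjamini-Hochberg adjusted over 18417 genes. The fit was checked on simulated arrays and repeated under 17 alternatives (choice of cluster, signal filter, normalization, variance model, array weights, replicate block, each array left out). Errors are SE of this fit.

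The members and lists were chosen with earlier results of these data known. All members are named. All 6 values are given for members at an unadjusted p under 0.05 (at most 16) and for the member with the highest mean in each role group; those of LIF, IL33, CX3CL1, CXCL8 and RELA were added after their values were seen. Of the 2 pathway lists, up to 5 genes a list at that level are named, and IKBKB and IKBKG were added after their values were seen. Each gene has 1 promoter window, at its outermost RefSeq start where listed (31 of 36 members). Python 3.11.15 and matplotlib 3.10.9 drew the figures.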

Additional observations from a re-analysis of the deposited data

How the results depend on the processing

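The fit was repeated under 17 alternatives. Members past an adjusted p of 0.05 numbered 0 in the fit reported and 1, IL32, among genes above the median of all clusters, with an intensity trend, with a trend and robust prior, and with array weights (adjusted p 0.0454, 0.0446, 0.0454 and 0.0142). Over all genes limma called 26, and 0 with all clusters tested together (2551 at an unadjusted p under 0.05), 76 above the median, 53 without the dimmest 20%, 40 after quantile normalization again, 47 after cyclic loess, 69 with a trend with or without the robust prior and 177 with array weights. The array weights were 0.37, 0.75 and 1.21 for celecoxib replicates 1 to 3 and 5.85, 0.92 and 0.55 for control replicates 1 to 3. In that fit the controls thus rest largely on control replicate 1. Leaving out any of the 6 arrays in turn gave 0 to 5 genes. The median of the members was -0.027 after shifting arrays to the common median, -0.049 after cyclic loess, -0.029 with array weights and -0.065 to -0.026 without each array in turn, the last without celecoxib replicate 2. Members at an unadjusted p under 0.05 numbered 6 to 9 of 47 (7 of 30 above the median) beside 7.02% to 18.1% of all genes tested, the last with array weights, where 9 of 47 members had one, near that share. Members lower numbered 27 to 34 of 47 (21 of 30 above the median, 29 of 44 without the dimmest 20%). The cause of these shifts was not tested.

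Of the 12 members given in full by rule, 8 kept their sign in every alternative. They are the 8 chosen for an unadjusted p under 0.05 in the fit reported. Alternatives that changed only the genes tested, the variance model or the block left the differences as they were, so the sign was fixed there. Of the 8, IL32, TNFAIP2, IRF1 and TNFAIP3 also stayed at an unadjusted p under 0.05 in all 17, BCL3 in 15, IL18 in 12, CD83 in 11 of 16 and CCL5 in 9. Near 0, signs turned: NFKBIA was 0.017 and REL 0.027 after the median shift, IER3 -0.0011 after quantile normalization again and -0.013 after cyclic loess. Without each array in turn, NFKBIA lay between -0.067 and 0.034, REL between -0.094 and 0.051, IER3 between -0.029 and 0.056 and CXCL16 between -0.213 and 0.0086.

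With the replicate number as a block (replicate block) 0 genes and 0 members passed, against 26 and 0, with 2448 genes (13.3%) and 8 members at an unadjusted p under 0.05, 7 of them lower: CCL5 was lost and IL33 entered as higher. IL32 had an adjusted p of 0.0692. Deviations of same-numbered arrays correlated at -0.088, 0.448 and 0.053, and 2 of 3 celecoxib and 1 of 3 control arrays correlated best with their own number. The labels give only the number, and these correlations cannot decide whether same-numbered arrays were handled together.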
